A study of Homo sapiens with 6 samples.

Results

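The genes described here are the ZNF zinc finger genes expressed in HCT116, an established human colorectal carcinoma line, after BMH-21 and in controls. They were chosen by symbol, ZNF followed by a number and an optional letter from A to D, and by a mean of at least 3 TPM over all 6 libraries. TPM is a transcript's share of its library corrected for length. Of 503 such ZNF symbols among 25662 listed gene symbols, 147 met the minimum and 356 did not. BMH-21 cells received 1 µM of the drug for 24 h, and control cells received the solvent DMSO, with 3 libraries in each group. BMH-21 is a small molecule that slips between DNA base pairs and blocks the polymerase that transcribes ribosomal RNA genes, RNA polymerase I. Control titles read 0 h; if those cells were collected at the start, time in culture and drug cannot be told apart. Both groups are the same line in the same serum-containing medium, and no label describes an engineered allele.

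ZNF is a naming series for proteins whose zinc fingers, short loops held by a zinc ion between cysteines and histidines, mostly read DNA and sometimes RNA or protein. Many carry a KRAB domain near their start. KRAB recruits the scaffold TRIM28 with the histone methyltransferase SETDB1 and heterochromatin proteins, and this machinery is best known for silencing transposable elements. Genes of the KRAB type lie in clusters, above all on human chromosome 19, and have multiplied by duplication. Other ZNF proteins have nothing to do with KRAB and serve in ribosome assembly, translation, splicing, mitosis or the regulation of ordinary promoters.

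The repeat that makes this family can be read from 4 members described below. Each line gives a single finger unit of 84 bases from its coding sequence, taken from GENCODE release 29 transcripts on GRCh38 and written in the direction of transcription. Capitals mark the codons of the linker that joins it to the next finger.
ZNF79, chr9:127444283-127444366, plus strand: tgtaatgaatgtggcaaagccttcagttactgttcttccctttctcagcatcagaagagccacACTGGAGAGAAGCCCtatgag
ZNF480, chr19:52322283-52322366, plus strand: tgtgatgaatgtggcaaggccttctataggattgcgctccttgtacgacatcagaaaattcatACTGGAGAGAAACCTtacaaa
ZNF695, chr1:246987204-246987287, minus strand: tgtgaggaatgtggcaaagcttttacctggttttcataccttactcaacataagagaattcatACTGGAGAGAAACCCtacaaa
ZNF226, chr19:44176355-44176438, plus strand: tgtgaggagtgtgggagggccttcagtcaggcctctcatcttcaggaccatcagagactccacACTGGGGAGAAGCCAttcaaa
Between 55 and 64 of the 84 bases were identical in each pair of these units. The pair with 64 identical bases was ZNF480 and ZNF695, which moved in opposite directions.

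Such likeness bears on how reads are assigned to genes. Over the 147 genes, a median of 0.85% of the 31-base words of a gene's representative transcript also occurred in another gene, and 120 genes shared less than 10%. ZNF410 and ZNF286A shared at least 50%, and neither was called. Among called genes, the share with any other gene was 42.1% for ZNF395, 37.7% for ZNF324, 33% for ZNF587 and 24.4% for ZNF511. The share with the closest single gene was 41.9% for ZNF395 with FBXO16, 24.7% for ZNF324 with ZNF446, 25.1% for ZNF587 with ZNF417 and 24.4% for ZNF511 with the readthrough gene ZNF511-PRAP1. Their values are therefore less certain than those of ZNF335, ZNF385A and ZNF408, which shared no such word with any other gene.

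In bulk libraries, fewer cells of a type and less RNA per cell cannot be told apart. Of 7 epithelial markers found in the table, 6 stood at 15.1 TPM or more in every library, and VIL1 was at 0.27 TPM or less. KRT8 stood at 6070 to 7031 TPM in BMH-21 libraries and at 2664 to 2892 TPM in controls, and EPCAM at 134 to 147 against 77.1 to 110 TPM. Among markers of blood, endothelium and fibroblasts, CD3E, PECAM1, VWF, COL3A1 and DCN were at 0.19 TPM or less, COL1A1 at 1.83 to 3.23 TPM in BMH-21 libraries against 3.64 to 4.76 TPM in controls, and ACTA2 at 29.6 to 31.2 against 3.87 to 4.90 TPM. The p53 target CDKN1A stood at 2285 to 2380 TPM in BMH-21 libraries against 214 to 234 TPM in controls. BMH-21 replicate 3 and control replicate 1 differed from the rest of their groups, with mitochondrial-encoded transcripts at 26.1% and 25.8% of TPM against 20.3% to 21.6% in the other 4 libraries.

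The outcome for the ZNF genes was a minority of changes of small size, more often upward than downward in all 6 libraries together but not with the 2 deviating libraries left out. Across the whole table, 36.4% of the 12041 genes tested were called, 19.4% higher and 16.9% lower after BMH-21, by limma at a Benjamini-Hochberg adjusted p under 0.05. Of the 147 ZNF genes, 32 (21.8%) were called, 22 higher and 10 lower, and 115 were not. Genes within the same range of mean TPM were called in 37.7% of cases. The median log2 fold change, BMH-21 over control, was 0.12 over the ZNF genes and 0.06 over all genes, and the quartiles of the ZNF genes were -0.13 and 0.35. A called change of at least 1 on the log2(TPM + 1) scale was seen for 4 ZNF genes. These were ZNF79, ZNF146 and ZNF561 upward and ZNF695 downward. Among all genes, 8.31% had such a called change. ZNF480 was just under this cut at 0.97, with a ratio of mean TPM of 2.07. The 3 BMH-21 and 3 control libraries did not overlap for 68 ZNF genes, 49 of them higher and 19 lower, while 51.5% of all genes did not overlap, 29.6% higher and 22% lower.

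Most ZNF transcripts without a call were bounded within 1 on the log2(TPM + 1) scale, but far fewer within 0.5. For 111 of the 115, the 95% interval of the log2 fold change lay inside -1 to 1, and for 34 it lay inside -0.5 to 0.5. Thus a change of 1 on the log2(TPM + 1) scale lay outside the interval for nearly all of them, while changes of 0.5 mostly did not. At low TPM a 2-fold change in TPM is less than 1 on this scale, so it was excluded for fewer genes. ZNF786, ZNF276, ZNF875 and ZNF623 had the largest fold changes without a call, at 0.57, 0.57, 0.53 and 0.53 on the log2 scale. In each, BMH-21 replicate 3 was far above the other BMH-21 libraries: ZNF276 stood at 17.0, 17.4 and 32.3 TPM there, against 11.9, 14.7 and 15.8 TPM in controls.

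**Figure D1:**
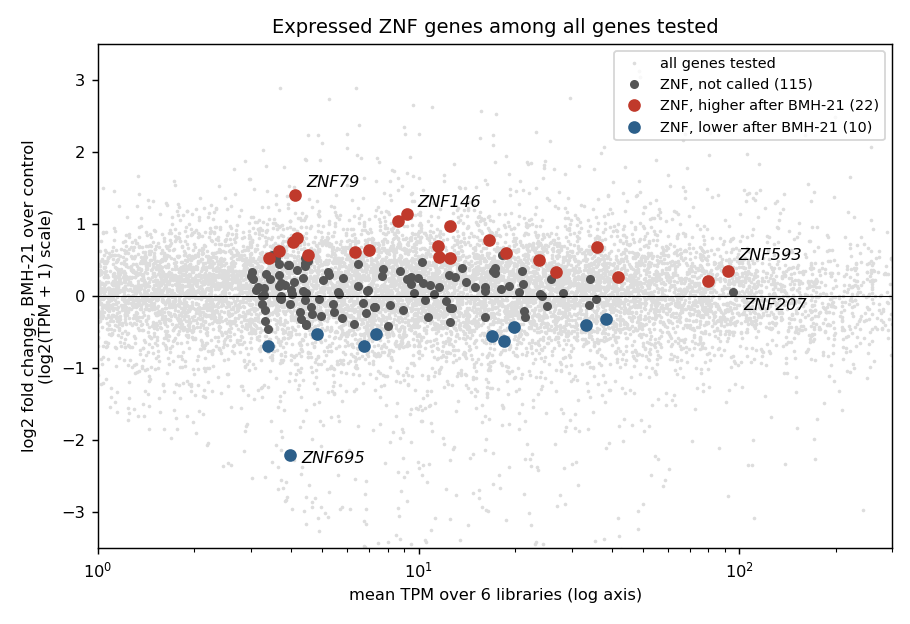
Log2 fold change on the log2(TPM + 1) scale, BMH-21 over control, against mean TPM over 6 libraries on a log axis, for the 12041 genes tested (small grey points) and the 147 ZNF genes (large points, red called higher, blue called lower, dark grey not called). ZNF genes sit close to the zero line, with ZNF79 at 1.41 and ZNF695 at -2.21 as the extremes; points of other genes beyond the axes are not drawn.

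The libraries that stood apart weighed on these counts. BMH-21 replicate 3 held the highest value of its group for 121 of the 147 ZNF genes, and control replicate 1 the lowest of its group for 87. Summed over the ZNF genes, the BMH-21 libraries held 1722, 1758 and 2057 TPM and the controls 1615, 1716 and 1704 TPM. With both of these libraries left out, 33 ZNF genes were called higher and 34 lower of 146 tested, when 24.7% of all genes were called higher and 33.7% lower, and the ZNF median turned to -0.02 while that of all genes was -0.06. All 31 of the called ZNF genes that could still be tested kept their call and sign in that setting. Without these libraries, higher calls no longer outnumbered lower calls among ZNF genes; the part of their mitochondrial share in this was not tested. Counts moved with single libraries too: without BMH-21 replicates 1, 2 or 3 they were 12 higher and 4 lower, 13 and 6, or 21 and 17, and without control replicates 1, 2 or 3 they were 18 and 7, 12 and 2, or 15 and 5. Over all genes, 27.6%, 26.1% and 42.8% were called without BMH-21 replicates 1, 2 or 3, and 31.3%, 27.2% and 26.5% without control replicates 1, 2 or 3, so calls moved across the whole table.

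Calls differed in how they held. ZNF79, ZNF146, ZNF561, ZNF480, ZNF219, ZNF335, ZNF385A, ZNF226, ZNF324 and ZNF655 were called higher, and ZNF695, ZNF784 and ZNF395 lower, in each of 16 alternative settings that gave them a value. The other 19 called genes lost the call with at least 1 single library left out, and 0 of the 32 changed sign. They were ZNF343, ZNF587, ZNF503, ZNF644, ZNF593, ZNF622, ZNF428, ZNF706, ZNF268, ZNF558, ZNF513 and ZNF408 among the rises and ZNF749, ZNF414, ZNF689, ZNF232, ZNF580, ZNF511 and ZNF581 among the falls. Among them ZNF706 had the highest adjusted p over all settings, at 0.27 in limma.

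**Figure D2:**
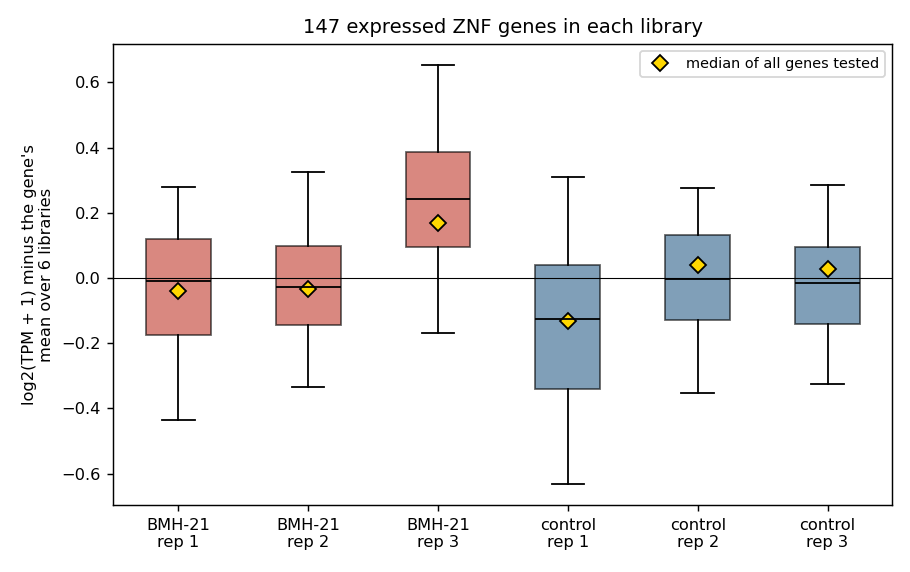
Deviation of log2(TPM + 1) from each gene's mean over 6 libraries for the 147 ZNF genes in each library; boxes span the quartiles with the median as a line, whiskers run from the 5th to the 95th percentile, and diamonds are the median over all genes tested. BMH-21 replicate 3 has a ZNF median of 0.24 and control replicate 1 one of -0.13, while the other 4 libraries lie between -0.03 and -0.0033.

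Genes with a reported link to p53 held 2 of the 3 largest rises. This list was drawn up after earlier results of these data had been seen, so its counts are a description only. Of 9 listed genes, 6 were expressed ZNF genes, and 4 of these rose, 0 fell and 2 were not called, with a median log2 fold change of 0.73 (0.06 over all genes). The shares called over all genes were 19.4% higher and 16.9% lower. With both deviating libraries left out, 5 of the 6 were called higher and 1 lower, beside 24.7% and 33.7% of all genes. ZNF79, a zinc finger gene named in compilations of p53 targets (chromosome 9, 127424374 to 127445372, GRCh38), stood at 5.55, 5.75 and 8.10 TPM in BMH-21 libraries and at 1.90, 1.65 and 1.79 TPM in controls. The lowest BMH-21 value was thus well above the highest control. The gene met the minimum of 3 TPM only through the BMH-21 libraries. Its mean was 6.47 ± 1.42 TPM after BMH-21 and 1.78 ± 0.13 TPM in controls (SD, n = 3 each), and its log2 fold change was 1.41 (SE 0.18; adjusted p = 0.00040 in limma).

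ZNF561, a KRAB zinc finger gene of chromosome 19 that is also found in such compilations (9604680 to 9621399), read 11.6, 9.28 and 15.1 TPM in BMH-21 libraries and 4.25, 5.12 and 6.51 TPM in controls. The groups were clear of each other, and the log2 fold change was 1.04 (SE 0.21, limma adjusted p = 0.0050). Its transcript shared 19% of its 31-base words with other genes, its neighbour ZNF562 being the closest. ZNF562 itself had a log2 fold change of 0.43 without a call.

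ZNF219, a repressor and partner of SOX9, reached 18, 20.2 and 25.4 TPM after BMH-21 against 12.3, 10.9 and 12.3 TPM in controls, with no overlap (log2 fold change 0.78, SE 0.15, limma adjusted p = 0.0037). ZNF385A, a p53-binding protein that steers p53 towards cell cycle arrest genes, reached 38, 43.8 and 51.7 TPM after BMH-21 against 31.1, 24.7 and 26.3 TPM in controls. It too was free of overlap, and at 35.9 TPM over all libraries it was the most abundant of this group (log2 fold change 0.68, SE 0.13, limma adjusted p = 0.0049). The remaining members were ZNF668, reported to stabilise p53, at 0.29 and ZNF346, a double-stranded RNA binding protein, at -0.24 on the log2 scale, both without a call. ZNF337 and ZNF385B were below the minimum, and ZNF420 was listed at 0.

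**Figure D3:**
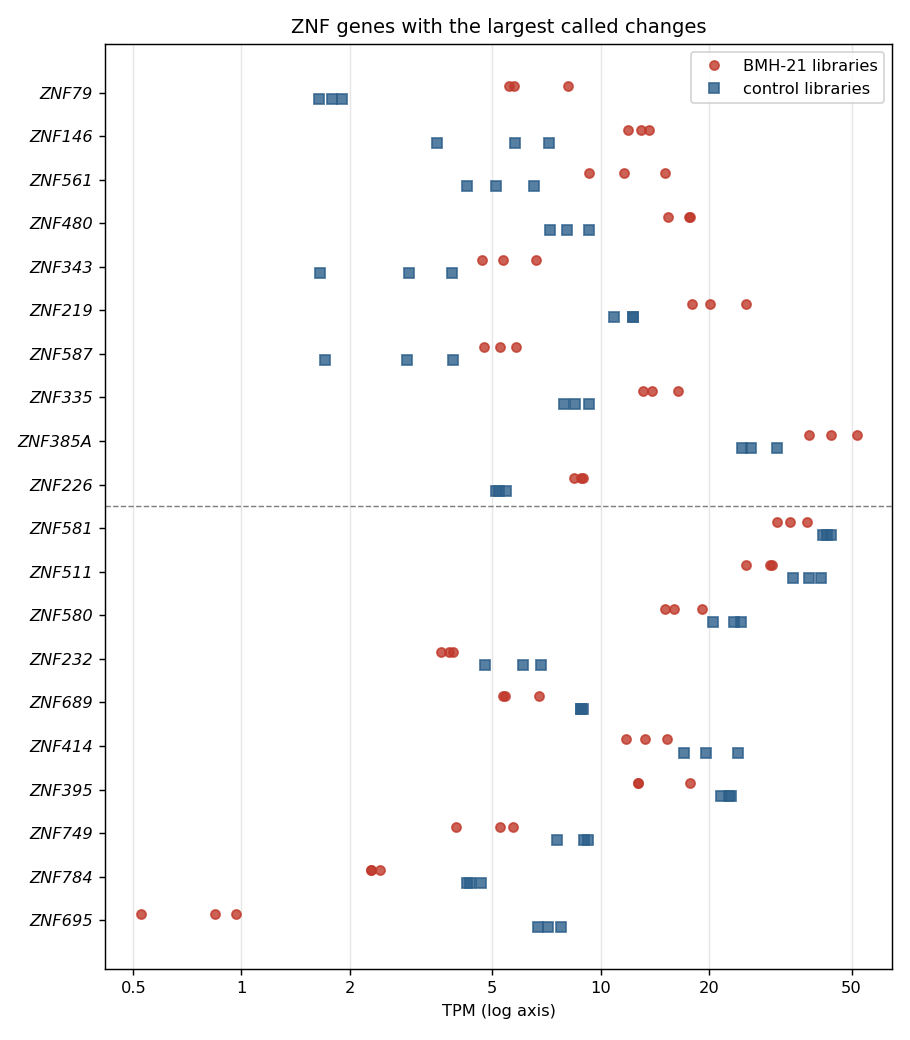
TPM on a log axis in each of 3 BMH-21 libraries (circles) and 3 control libraries (squares) for the 10 ZNF genes called higher with the largest changes, above the dashed line, and the 10 called lower, below it. In every gene shown the groups are clear of each other; ZNF695 is at 0.53 to 0.96 TPM after BMH-21 and 6.68 to 7.77 TPM in controls.

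Among genes that serve ribosomes and translation, the called changes were small rises. Of 6 listed genes, 5 were expressed, and 3 rose, 0 fell and 2 were not called (median log2 fold change 0.24). Among all genes, 19.4% were called higher and 16.9% lower. The count was the same with both deviating libraries left out, when 24.7% of all genes were higher and 33.7% lower. ZNF593, whose yeast counterpart Bud20 accompanies the large ribosomal subunit out of the nucleus (chromosome 1, 26169871 to 26170873), stood at 111, 107 and 92.1 TPM in BMH-21 libraries and 76.6, 83.0 and 83.0 TPM in controls. Every BMH-21 library was above every control, by 0.35 on the log2 scale (SE 0.09, limma adjusted p = 0.017). ZNF622, whose yeast counterpart Rei1 acts in the last cytoplasmic steps of the same subunit, read 29.5, 28.8 and 31.6 TPM after BMH-21 against 23.2, 23.1 and 24.4 TPM in controls, higher by 0.34 on the log2 scale (SE 0.09, limma adjusted p = 0.022). ZNF706, a very short protein, gave 84.8, 85.7 and 87.9 TPM after BMH-21 against 73.9, 76.0 and 72.3 TPM in controls (log2 fold change 0.22, SE 0.07, limma adjusted p = 0.043).

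Those 3 calls did not hold in every setting. Of the 16 alternative settings, ZNF593 was called in 10, ZNF622 in 9 and ZNF706 in 6, always with the same sign. ZNF598, the ubiquitin ligase that marks collided ribosomes, stood at 24.7, 26.1 and 35.9 TPM after BMH-21 and 28, 27.8 and 26.9 TPM in controls, overlapping, and its log2 fold change was 0.05 with a 95% interval of -0.27 to 0.37. ZNF330, a nucleolar protein, was not called either (0.24). ZNF658 was not among the expressed genes.

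Among genes linked to cell division, the abundant mitotic factor stayed within its spread. ZNF207, known as BuGZ, which protects the checkpoint protein BUB3 and promotes spindle assembly, was the most abundant ZNF transcript at a mean of 95.2 TPM. It read 91.5, 88.8 and 112 TPM after BMH-21 and 81.9, 101 and 96.7 TPM in controls. The groups overlapped, and the log2 fold change was 0.06 with a 95% interval of -0.20 to 0.32 (limma adjusted p = 0.71). With both deviating libraries left out it was -0.13 and was called (limma adjusted p = 0.048).

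Of 7 genes listed for cell division, 5 were expressed, 2 rose, 0 fell and 3 were not called, with a median of 0.45. The shares of all genes were 19.4% higher and 16.9% lower. With both deviating libraries left out, 3 were called higher and 1 lower, beside 24.7% and 33.7% of all genes. ZNF324 rose by 0.61 on the log2 scale, with 7.70, 7.62 and 8.33 TPM in BMH-21 libraries and 4.74, 4.96 and 4.73 TPM in controls. ZNF655, a KRAB protein reported to bind the cyclin-dependent kinase CDK4, read 28.2, 28 and 28 TPM after BMH-21 against 17.6, 21.7 and 19.3 TPM in controls (log2 fold change 0.51, SE 0.11, limma adjusted p = 0.0066). The end of ZNF324 overlaps the start of ZNF446 on the same strand of chromosome 19, and ZNF446 had a log2 fold change of -0.34 without a call. ZNF830 and ZNF16 were not called, at 0.45 and 0.03. ZNF367 was under the minimum, with 0.06 to 0.11 TPM after BMH-21 against 1.57 to 3.09 TPM in controls, a called fall of 1.63 on the log2 scale.

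RNA processing factors gave no call among the 4 of 5 listed genes that were expressed, where 36.4% of all genes were called. ZNF830, a splicing and DNA damage protein that is also on the cell division list, and ZNF692 were at 0.45 and 0.35 on the log2 scale. ZNF473, which takes part in forming the ends of histone messenger RNAs, and ZNF326, which couples splicing to elongation, were at -0.04 and -0.19. ZNF473 values overlapped, at 3.77, 2.69 and 4.49 TPM after BMH-21 and 2.61, 4.17 and 4.68 TPM in controls. At an unadjusted p under 0.05, 2 of the 4 would have passed in limma. ZNF638, the fifth listed gene, a splicing regulator just under the minimum at a mean of 2.91 TPM, was called higher by 0.67 (limma adjusted p = 0.011). With both deviating libraries left out, 1 of the 4 was called higher and 1 lower, beside 24.7% and 33.7% of all genes.

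**Figure D4:**
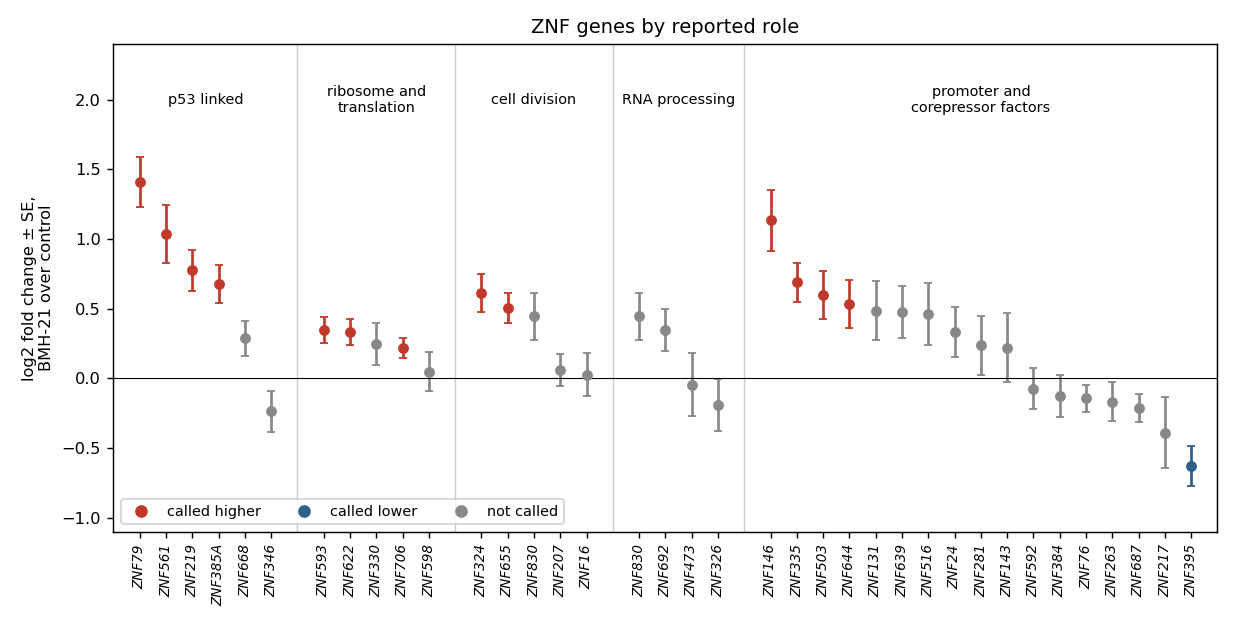
Log2 fold change ± SE, BMH-21 over control, for the expressed ZNF genes of 5 role lists, in order of size within each list, with called genes in colour; ZNF830 appears in both lists that hold it. Rises of at least 1 are those of ZNF79, ZNF561 and ZNF146, and ZNF395 at -0.63 is the only called fall among these genes.

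Promoter and corepressor factors moved in both directions. Of 20 listed genes, 17 were expressed, 4 rose, 1 fell and 12 were not called, with a median of 0.24. That is 23.5% higher and 5.88% lower, against 19.4% and 16.9% of all genes. With both deviating libraries left out, 4 were called higher and 6 lower, beside 24.7% and 33.7% of all genes. ZNF146, a protein built almost wholly of fingers and known for its overexpression in pancreatic and colorectal tumours (chromosome 19, 36214602 to 36238774), stood at 11.9, 13.0 and 13.7 TPM in BMH-21 libraries and 3.51, 5.78 and 7.20 TPM in controls. All BMH-21 values were above all controls, though the controls were spread over a wide range with replicate 1 lowest, and the log2 fold change was 1.14 (SE 0.22, limma adjusted p = 0.0041). With both deviating libraries left out it was 0.85 and still called.

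ZNF335, a component of histone H3 lysine methyltransferase complexes needed in neural progenitors, read 13.1, 13.9 and 16.4 TPM after BMH-21 and 9.30, 8.47 and 7.91 TPM in controls, without overlap (log2 fold change 0.69, SE 0.14, limma adjusted p = 0.0051). ZNF503, a corepressor in development, and ZNF644, a partner of the methyltransferases G9a and GLP, rose by 0.60 and 0.53 on the log2 scale. ZNF503 rested in part on BMH-21 replicate 3, at 30.1 TPM beside 19.3 TPM in each of the other BMH-21 libraries, against 14 to 14.8 TPM in controls; without that library its log2 fold change was 0.40, still called.

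ZNF395, a factor described at the huntingtin promoter and in hypoxia, was lower at 12.7, 12.7 and 17.7 TPM after BMH-21 against 21.7, 22.8 and 23.1 TPM in controls. The groups did not meet, and the log2 fold change was -0.63 (SE 0.14, limma adjusted p = 0.0093), a call kept in all 16 alternatives. ZNF143, an activator of many housekeeping promoters, and its relative ZNF76 were not called, at 0.22 and -0.14. Neither were ZNF592 and ZNF687, which work together in a chromatin complex, at -0.07 and -0.21, nor ZNF217, an oncogenic partner of the corepressor CtBP, at -0.39. ZNF131, ZNF639, ZNF516, ZNF24, ZNF281, ZNF384 and ZNF263 were without a call between -0.17 and 0.49.

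KRAB zinc finger genes with few other reports made up much of the rest of the rises. ZNF480 (chromosome 19, 52297177 to 52325922) stood at 17.6, 17.7 and 15.5 TPM in BMH-21 libraries and 8.06, 7.25 and 9.27 TPM in controls. The groups were far apart relative to their spread, and the log2 fold change was 0.97 (SE 0.14, limma adjusted p = 0.00083). ZNF226 read 8.82, 8.95 and 8.44 TPM after BMH-21 against 5.44, 5.11 and 5.20 TPM in controls (log2 fold change 0.64, SE 0.14, limma adjusted p = 0.0064). ZNF343 and ZNF587 rose by 0.81 and 0.75 with control values spread from 1.66 to 3.85 TPM and from 1.71 to 3.87 TPM, lowest in control replicate 1 in both, and lost their call in 5 of 15 and 6 of 15 alternatives. With both deviating libraries left out their log2 fold changes were 0.46 and 0.46. ZNF428, among the 6 most abundant ZNF genes, rose by 0.26. The other rises, named here after their values were seen to complete the count, were those of ZNF268, ZNF558, ZNF513 and ZNF408, from 0.53 to 0.62.

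The deepest fall was that of ZNF695, a KRAB zinc finger gene (chromosome 1, 246945547 to 247008093, minus strand). It read 0.96, 0.53 and 0.84 TPM in BMH-21 libraries and 6.68, 7.77 and 7.14 TPM in controls. Every BMH-21 library was under 1 TPM and every control above 6 TPM. The mean after BMH-21, 0.78 ± 0.23 TPM, was 0.11 of the control mean of 7.20 ± 0.55 TPM (SD, n = 3 each), and the log2 fold change was -2.21 (SE 0.16, limma adjusted p = 1.7e-05). It was the single ZNF gene of the 147 that did not reach 1 TPM in every library. ZNF695 met the minimum of 3 TPM only through the controls.

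The other 9 falls were shallow, from -0.70 to -0.32 on the log2 scale. ZNF784 read 2.30, 2.29 and 2.43 TPM after BMH-21 against 4.66, 4.26 and 4.34 TPM in controls, a clear separation at low values (log2 fold change -0.70, SE 0.14, limma adjusted p = 0.0055). ZNF749, a KRAB gene, fell by 0.69, to 3.95, 5.71 and 5.24 TPM in BMH-21 libraries against 7.58, 9.22 and 8.97 TPM in controls. ZNF414, ZNF689 and ZNF232 fell by 0.55, 0.53 and 0.52, ZNF580, ZNF511 and ZNF581 by 0.43, 0.41 and 0.32. ZNF581 was among the 6 most abundant ZNF genes, at 31, 37.6 and 33.8 TPM after BMH-21 and 41.7, 42.6 and 43.8 TPM in controls.

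Some of these falls came from neighbouring genes, a pattern picked out after its values were seen. On chromosome 19, ZNF579, ZNF524, ZNF865, ZNF784, ZNF580 and ZNF581 follow each other between 55576770 and 55645622. Their log2 fold changes in that order were -0.29, 0.27, -0.39, -0.70, -0.43 and -0.32, and the last 3 were called. ZNF580 and ZNF581 overlap on the same strand, and ZNF581 shared 17.3% of its 31-base words with other genes, so their reads may not be fully separable.

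By structure, the 147 genes held a median of 8 zinc fingers, from 0 found in ZNF503, ZNF330, ZNF185 and ZNF839 to 31 in ZNF142. A match to the KRAB A box, at least 8 of 10 searched positions in any coding transcript, was found in 49 genes. It was found in 0 of 10771 tested coding genes outside the zinc finger and KRAB families, which were set aside by symbol. Of those 49, 9 rose and 3 fell, their median log2 fold change was 0.18, and 39 were above 0. Over all genes 19.4% were called higher and 16.9% lower, and 6661 of 12041 were above 0. Of the 98 without a match, 13 rose and 7 fell, with a median of 0.07 and 58 above 0. The search can miss degenerate boxes, and the difference between these groups of genes is given without a test. The splits by KRAB match, fingers and chromosome were counted in all 6 libraries only. With both deviating libraries left out, the median over the ZNF genes was -0.02. Rises were counted for 6 of 40 genes with up to 4 fingers, 7 of 55 with 5 to 9, and 9 of 52 with 10 or more, and falls for 5, 3 and 2, beside the same shares over all genes. Across the 147 genes, Spearman's rho of the log2 fold change was 0.14 with the number of fingers, -0.13 with GC content and -0.01 with mean TPM, as a description over genes that share their libraries.

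Chromosome 19 carried 40 of the 147 genes, of which 8 rose and 5 fell, with a median of 0.13. On the other chromosomes 14 of 107 rose and 5 fell, with a median of 0.11. Over all tested genes, 19.4% were called higher and 16.9% lower. The 817 other tested genes of chromosome 19 had a median of -0.08, with 140 higher and 207 lower. Chromosome 16, named after its values were seen, held 19 ZNF genes, of which 0 rose and 1, ZNF689, fell.

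**Figure D5:**
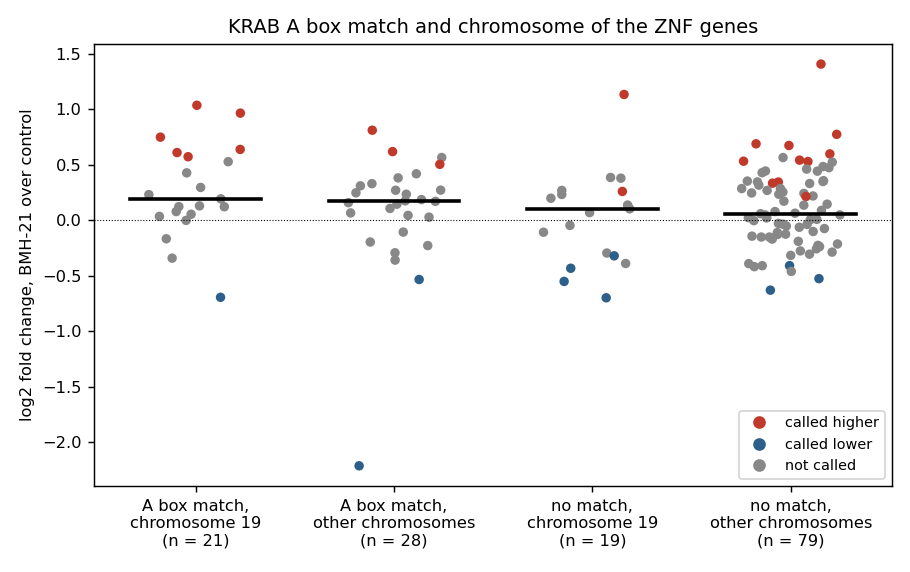
Log2 fold change, BMH-21 over control, of the 147 ZNF genes by KRAB A box match and by chromosome, 1 point a gene with random sideways shift, and a bar at the median. Medians are 0.19, 0.17, 0.10 and 0.06 from left to right, and the spreads of the 4 groups overlap almost wholly.

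Among listed KRAB corepressor partners, the deepest falls were in genes of histone and DNA methylation, and the changes of TRIM28 and SETDB1 were smaller. The 28 listed symbols of corepressor partners included a former symbol of TASOR, and 27 were in the table. Of these, 26 were tested, 2 rose, 7 fell and 17 were not called, with a median of -0.25. That is 7.69% higher and 26.9% lower, against 19.4% and 16.9% of all genes. With both deviating libraries left out, 4 were called higher and 17 lower, in a setting where 24.7% of all genes were higher and 33.7% lower. SUV39H1, a histone H3 lysine 9 methyltransferase, stood at 1.24, 1.28 and 1.32 TPM in BMH-21 libraries and 20.3, 20.7 and 21 TPM in controls, a log2 fold change of -3.25 (SE 0.14). UHRF1, which brings the maintenance methylase to replicating DNA, and the DNA methyltransferases DNMT1 and DNMT3B fell by 2.42, 1.72 and 1.51. MORC2 and PPHLN1, of the HUSH silencing system, rose by 0.77 and 0.47, and MORC2 by 0.50 with both deviating libraries left out. Of the same system, TASOR at 0.47 and MPHOSPH8 at -0.01, named here after their values were seen, were not called. TRIM28, named here after its values were seen, stood at 817, 890 and 907 TPM after BMH-21 and 1185, 1071 and 1060 TPM in controls, a fall of 0.34 without overlap (SE 0.08, limma adjusted p = 0.012). SETDB1 was not called, at -0.24.

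Of 9 KRAB genes listed for binding retroelements, none reached the minimum. ZNF10, ZNF93, ZNF382 and ZNF528 were listed at 0 in every library. ZNF274, at a mean of 2.74 TPM, rose to 2.80, 3.58 and 4.16 TPM after BMH-21, against 2.27, 1.65 and 1.96 TPM in controls (log2 fold change 0.60, limma adjusted p = 0.026).

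Promoters were examined for 123 of the 147 genes, those with an entry in the RefSeq promoter table (GRCh38.p14), over the 250 bases before the start. The 4 shown are those of the 3 largest rises and of the deepest fall. Capitals mark the searched motif found in each, on either strand, and matches to different motifs were counted whether or not they overlapped.
ZNF79, chr9:127424132-127424381, plus strand, motif CCGGAAGT: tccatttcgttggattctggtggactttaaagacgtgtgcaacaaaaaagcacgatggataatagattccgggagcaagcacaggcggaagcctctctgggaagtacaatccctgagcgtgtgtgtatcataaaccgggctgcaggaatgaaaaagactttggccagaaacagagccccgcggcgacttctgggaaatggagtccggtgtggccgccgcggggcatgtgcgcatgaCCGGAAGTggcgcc
ZNF146, chr19:36214856-36215105, plus strand, motif ACTACA, any 2 bases, TCCC: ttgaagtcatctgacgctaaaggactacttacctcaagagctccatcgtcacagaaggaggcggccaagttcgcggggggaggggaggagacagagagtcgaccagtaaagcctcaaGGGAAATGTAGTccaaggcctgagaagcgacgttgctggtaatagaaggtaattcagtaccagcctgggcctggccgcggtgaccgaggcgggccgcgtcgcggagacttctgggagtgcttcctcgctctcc
ZNF561, chr19:9621233-9621482, minus strand, motif TGACGTCA: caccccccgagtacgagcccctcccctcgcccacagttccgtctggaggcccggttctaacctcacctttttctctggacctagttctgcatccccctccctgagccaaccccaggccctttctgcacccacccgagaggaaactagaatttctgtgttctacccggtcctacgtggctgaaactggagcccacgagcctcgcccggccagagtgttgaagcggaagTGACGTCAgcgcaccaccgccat
ZNF695, chr1:247008058-247008307, minus strand, motif TTTGAA: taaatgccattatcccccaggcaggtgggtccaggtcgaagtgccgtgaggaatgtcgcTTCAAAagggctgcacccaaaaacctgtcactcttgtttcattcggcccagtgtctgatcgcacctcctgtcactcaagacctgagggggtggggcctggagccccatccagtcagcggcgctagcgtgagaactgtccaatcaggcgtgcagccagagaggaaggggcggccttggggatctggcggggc
CCGGAAGT, a word of ETS factor sites, was in 18 of the 123 promoters (14.6%), against 7.59% of 9455 promoters of tested genes and 3.64% of all 27305 promoters. It was in 6 of 19 promoters of genes that rose (ZNF79, ZNF226, ZNF324, ZNF408, ZNF587 and ZNF622), in 12 of 95 of genes without a call and in 0 of 9 of genes that fell. ACTACA and TCCC with 2 bases between them, the word bound by ZNF143, was in 12 of the 123 (9.76%), of which ZNF146 and ZNF268 rose, against 4% of promoters of tested genes and 1.86% of all promoters.

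TGACGTCA, the cyclic AMP response word, was in 7 of the 123 ZNF promoters (5.69%) against 3.07% of promoters of tested genes and 1.77% of all promoters, and the called genes with it were ZNF561, ZNF335 and ZNF593, which rose, and ZNF511, which fell. TTTGAA, a word found at cell cycle promoters, was in 11 of 123 (8.94%) against 7.7% of promoters of tested genes and 13.6% of all promoters. It was in 3 of 9 of genes that fell (ZNF695, ZNF414 and ZNF689), in 1 of 19 of genes that rose (ZNF503) and in 7 of 95 of genes without a call. TATAAA was in 2 of the 123 (1.63%) against 4.89% of promoters of tested genes and 11.1% of all promoters. The p53 decamer was in 4 (3.25%) against 4.43% of promoters of tested genes and 5.53% of all promoters, and of called genes ZNF428 held it. GCGGGAAA was in 2 of the 123 (1.63%) against 2.36% of promoters of tested genes and 1.42% of all promoters. CACGTG was in 5 of the 123 (4.07%) against 9.24% of promoters of tested genes and 6.49% of all promoters. These are matches of letters in a short window and are not binding sites or causes.

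Levels within the family were low and uneven. Of the 147 genes, 91 had a mean under 10 TPM, 53 lay from 10 to 50 TPM, and ZNF207, ZNF593 and ZNF706 were above 50 TPM, at 95.2, 92.1 and 80.1 TPM. Low level and choice at a minimum go together: 17 genes had a group mean under 3 TPM in one group. Of these, 5 were called higher, 2 lower and 10 not called, beside 19.4% of all genes higher and 16.9% lower. The called ones were ZNF79, ZNF343, ZNF587, ZNF268 and ZNF644 among the rises and ZNF695 and ZNF784 among the falls. They met the minimum only through the group in which they were high, so their place among the 147 is not independent of their change. At the edge, ZNF2, ZNF24 and ZNF333 were included at 3.01, 3.02 and 3.04 TPM. ZNF585A, ZNF121 and ZNF337 were left out at 2.99, 2.97 and 2.96 TPM. Since the log2(TPM + 1) scale compresses low values, changes in these genes are understated.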

How the data were processed

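RNA of 3 BMH-21 and 3 control libraries of HCT116 cells was measured by sequencing. The labels name polyA RNA, while the labels' protocols describe ribosomal RNA removal with random priming, so the enrichment is uncertain. TPM per gene was deposited by the authors. Per the submitters' processing notes, the tools were STAR and Salmon and the build was GRCh38, with no versions; for annotation, strand setting and filters the entry is "not given in the sources used here". TPM keeps no depth, so sequencing depth is unknown, and each value is relative to the rest of its library. The series' design calls the replicates biological.

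The BMH-21 and control libraries were set against each other by limma 3.58.1 (R 4.3.3) on log2(TPM + 1), with an intensity trend and no covariate, over the 12041 genes with at least 1 TPM in at least 3 of 6 libraries. Tests were two-sided, p-values were adjusted by Benjamini-Hochberg over all of them, and genes were called at an adjusted p under 0.05. All 147 ZNF genes passed the filter. The fit was tested on simulated data.

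The ZNF genes and lists were chosen with earlier results of these data known. Genes named are the 10 higher and 10 lower with the largest changes and no overlap, the 6 with the highest mean, all expressed genes of the role lists, the 4 largest without a call, the 3 on each side of the minimum, and up to 4 called KRAB partners each way; others are marked. Fingers, KRAB A boxes and shared 31-base words were searched in GENCODE release 29 transcripts, in which all 147 symbols were found. Alternatives were the pseudocount (0.1), the filter, 4 scalings, no trend, a replicate block, other minimums and libraries left out. A single marker on the list is not reported here.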

Additional observations from a re-analysis of the deposited data

How the results depend on the processing

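Among the 32 called ZNF genes, 10 higher and 3 lower were called in each of 16 alternatives that gave them a value, 12 higher and 7 lower lost the call in at least 1, and 0 changed sign. ZNF695 had no value in 5 of them: 4 that leave out a control library, where too few libraries reached the filter, and the filter at a mean of 5 TPM, since its mean was 3.99 TPM. All other settings against the counts of 22 and 10 stayed within 1.5 times except as follows. Leaving out single libraries gave 12 to 21 higher, 2 to 17 lower, a median of 0.06 to 0.17 and 3083 to 5035 called genes in all. With control replicate 1 and BMH-21 replicate 3 both left out there were 34 lower, a median of -0.015 and 6652 called genes in all. At a minimum of 10 TPM, 12 were higher and 5 lower. Deviations of same-numbered libraries correlated at 0.04, -0.14 and 0.02, which gave no sign of a pairing by number. With 3 libraries in each group, 1 of them deviating, these correlations cannot exclude a pairing. With the replicate block 23 were higher and 9 lower. Signs turned for some genes without a call. With both libraries left out, log2 fold changes were -0.15 for ZNF143, -0.086 for ZNF16, -0.026 for ZNF2, -0.13 for ZNF207, -0.019 for ZNF281, -0.0017 for ZNF330, -0.10 for ZNF598 and -0.055 for ZNF875. Under the trimmed mean scaling ZNF16 was at -0.011, and under medians of ratios ZNF16 was at -0.020 and ZNF598 at -0.0059. Leaving out single libraries gave ranges of -0.061 to 0.41 for ZNF143, -0.046 to 0.12 for ZNF16, -0.041 to 0.12 for ZNF207, -0.24 to 0.11 for ZNF473, -0.21 to 0.011 for ZNF592 and -0.11 to 0.15 for ZNF598. The cause of these shifts was not tested. Depth is unknown, so what it limits cannot be stated.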

Other observations

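Zinc finger genes named by other domains give a comparison at the same minimum of 3 TPM. Their counts stand beside 19.4% of all genes called higher and 16.9% lower. Of 8 ZSCAN genes, which carry a SCAN dimerisation domain, 4 rose and 0 fell, with a median log2 fold change of 0.41. In these 4, BMH-21 replicate 3 was the highest library, and control replicate 1 was the lowest in ZSCAN21, ZSCAN31 and ZSCAN32. These families were not counted with both deviating libraries left out. ZSCAN31 stood at 4.70, 3.82 and 4.93 TPM in BMH-21 libraries and 0.96, 2.07 and 2.98 TPM in controls (log2 fold change 0.92, limma adjusted p = 0.021), and ZSCAN21, ZSCAN32 and ZSCAN9 rose by 0.67, 0.60 and 0.47. Of 17 ZBTB genes, which carry a BTB domain, 2 rose (ZBTB17 by 0.34 and ZBTB7B by 0.33) and 1 fell (ZBTB42, by 0.58). Neither of 2 ZKSCAN genes and none of 7 ZFP genes was called; in limma 0 of each had an unadjusted p under 0.05. ZFP36L1, a decay factor of AU-rich messenger RNAs, stood at 64.4, 69.6 and 148 TPM after BMH-21 against 79.4, 84.3 and 84.4 TPM in controls, with BMH-21 replicate 3 apart.

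ZNF genes below the minimum held some changes at low levels, in smaller shares than over all genes. Of 356, 100 could be tested, and 10 (10%) rose and 5 (5%) fell, against 19.4% and 16.9% of all genes. ZNF425 stood at 1.82, 1.57 and 2.36 TPM in BMH-21 libraries and 0.65, 0.51 and 0.63 TPM in controls (log2 fold change 0.86, limma adjusted p = 0.0027). ZNF814 and ZNF121 rose by 0.93 and 0.85. ZNF165 stood at 0.41, 0.55 and 0.52 TPM after BMH-21 and 1.96, 2.18 and 2.21 TPM in controls, a fall of 1.06, and ZNF714, ZNF273 and ZNF688 fell by 1.18, 0.89 and 0.68. These genes and families were named after their values were seen.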
